A study of Mus musculus with 6 samples.

Results

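In mouse bone marrow macrophages (BMMs) 10 podosome genes, of 18193 genes with a probe set of their own, were followed: Src, Cttn, Myo1d, Sh3pxd2a, Ptk2b, Pxn, Vcl, Tln1, Gsn and Was. They were chosen by name, and every probe set whose platform annotation gives only the symbol of a member was used, 28 probe sets in all. The probe set with the highest mean over the 6 arrays represents its gene. The members were picked with earlier results of these arrays known, so the differences of Src and Myo1d in particular are not independent evidence.

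Both groups of cells came from c57BL/6 mice without TNFR1 and TNFR2, the receptors of the cytokine TNF. Both were infected with a retrovirus for a chimeric receptor, made of the outer part of mouse TNFR1 and the membrane and inner parts of mouse RANK, the receptor that turns macrophages into bone-resorbing osteoclasts. In the mutant group (BM_mutant, n = 3 arrays) the IVVY motif of the RANK part carried inactivating mutations, and in the wild-type group (BM_wt, n = 3 arrays) it was intact. Transduced cells were kept by a 3-day selection in 2 ug/ml puromycin. They were then grown in 44 ng/ml M-CSF, a macrophage growth factor, with 10 ng/ml TNF present for 24 hours. RNA of 6 pooled dishes went onto each Affymetrix mouse array, and the labels count 3 independent assays. The age of the mice and whether the assays used different mice are not given in the sources used here. No cells without TNF were among the 6 arrays.

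Podosomes are small contacts between a cell and its matrix, built from a core of branched actin and a ring of integrin-binding proteins, and macrophages and osteoclasts both form them. In osteoclasts they gather into the sealing zone, the actin ring that encloses the bone surface being resorbed. Src phosphorylates several podosome proteins, and mice without Src have osteoclasts that do not resorb bone.

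The cells read as macrophages on all arrays. Of 12 listed macrophage markers 11 were matched, and their summed intensity was 209390.0 to 234884 on mutant arrays, against 212242 to 225816 on wild-type arrays. The 9 osteoclast markers summed to 1121 to 1883 on mutant arrays, against 8538 to 26876 on wild-type arrays. The groups did not overlap for 7 of the 9, where 1.96% of all genes were lower in the mutant without overlap. These were Acp5, Ctsk, Mmp9, Calcr, Dcstamp, Ocstamp and Itgb3. Itgb3 stayed near the floor on all arrays, with 3.86 on mutant array 1 against 3.88 on wild-type array 1. The group means of Src, Cttn and Myo1d were lower in the mutant too, and the part of the osteoclast markers in their differences was not tested. The 10 matched stromal markers summed to 74.6, 169.6 and 4785 on mutant arrays 1, 2 and 3 and to 72.4, 92.3 and 3435 on wild-type arrays 1, 2 and 3. Assay 3 thus held RNA of stromal genes in both groups, among them Col1a2 and Sparc, while Lum and Thy1 stayed below the array median throughout. The matched markers of T cells (3) and B cells (4) lay at or below double the array median on all 6 arrays. So did 5 of 6 neutrophil, 3 of 5 megakaryocyte and platelet, 3 of 5 endothelial and 2 of 4 smooth muscle markers. The exceptions were S100a8 (127.7 to 676.5), Pf4 (4460 to 15253.5), Ppbp, Kdr (39.5 to 170.8), Vwf, Acta2 and Tagln. Acta2 read 2928 on mutant array 3 and 2273 on wild-type array 3.

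**Figure D1:**
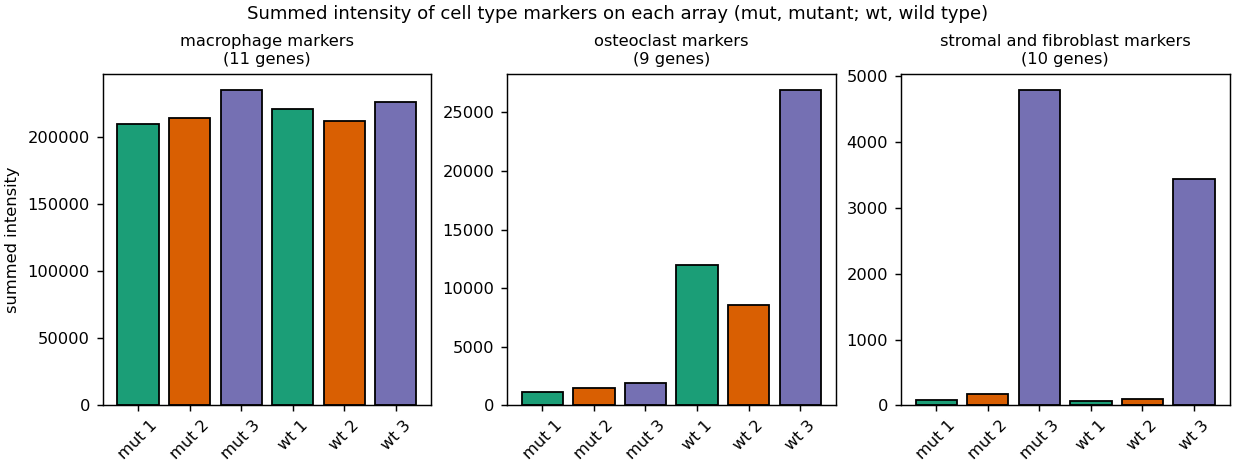
Bars give the summed intensity of the brightest probe set of each marker on each array, for macrophage, osteoclast and stromal markers (mutant arrays left, wild-type arrays right, coloured by replicate number, each panel with its own linear axis from 0). The osteoclast sums are 1121 to 1883 on mutant arrays and 8538 to 26876 on wild-type arrays, and the stromal sums are high only on array 3 of each group.

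Among the 10 genes, 3 stood apart from the rest: Src, Cttn and Myo1d read lower on the mutant array than on the wild-type array in every same-numbered pair. Their log2 differences, mutant minus wild type on the log2(intensity + 16) scale, were -1.16 ± 0.33 for Src, -1.13 ± 0.55 for Cttn and -1.46 ± 0.38 for Myo1d (limma SE). The other 7 genes had differences from -0.06 to 0.31 with a median of 0.11. Over all 10 members 5 means were lower and 5 higher (46.8% and 53.2% of all genes tested), and the median was -0.01, against 0.01 over all genes tested. Of all genes tested 12.0% were lower in every pair, while 3 of the 10 members were. Higher in every pair were 2 members, Sh3pxd2a and Ptk2b, where 14.5% of all genes were.

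By limma no member passed at an adjusted p under 0.05 over all 22497 probe sets, and 0 of these probe sets passed (0%). The smallest adjusted p over all probe sets was 0.99998 by limma without a block and 0.0792 when the replicate number was a block, where again 0 probe sets passed. At an unadjusted p under 0.05 limma gave 2 members, Src and Myo1d, where 1.14% of all genes had such a p. With the block these 2 and Cttn had such a p, where 5.89% of all genes did. By limma without the block, the unadjusted p of Src was 0.0502 to 0.131 without mutant array 1, mutant array 2, wild-type array 2, wild-type array 3 or both arrays of assay 2. That of Myo1d was 0.0940 without assay 1 and 0.0529 without assay 3, and that of Cttn was 0.0412 without mutant array 3, against 0.0918 with all arrays. That of Gsn, which was higher in the mutant, was 0.0390 without mutant array 3 and 0.0425 without assay 3, against 0.401 with all arrays. The values of Src and Myo1d did not overlap between the groups, as was the case for 1.96% of all genes in the lower direction. The count of lower means was 8 without mutant array 2 and 3 without wild-type array 2 or without mutant array 3. Without both arrays of assay 3 there were 4 members lower in each remaining pair, Was being the addition, and 4 higher, Vcl and Gsn being the additions. Counts over 2 pairs in place of 3 cannot fall below those over all pairs.

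**Figure D2:**
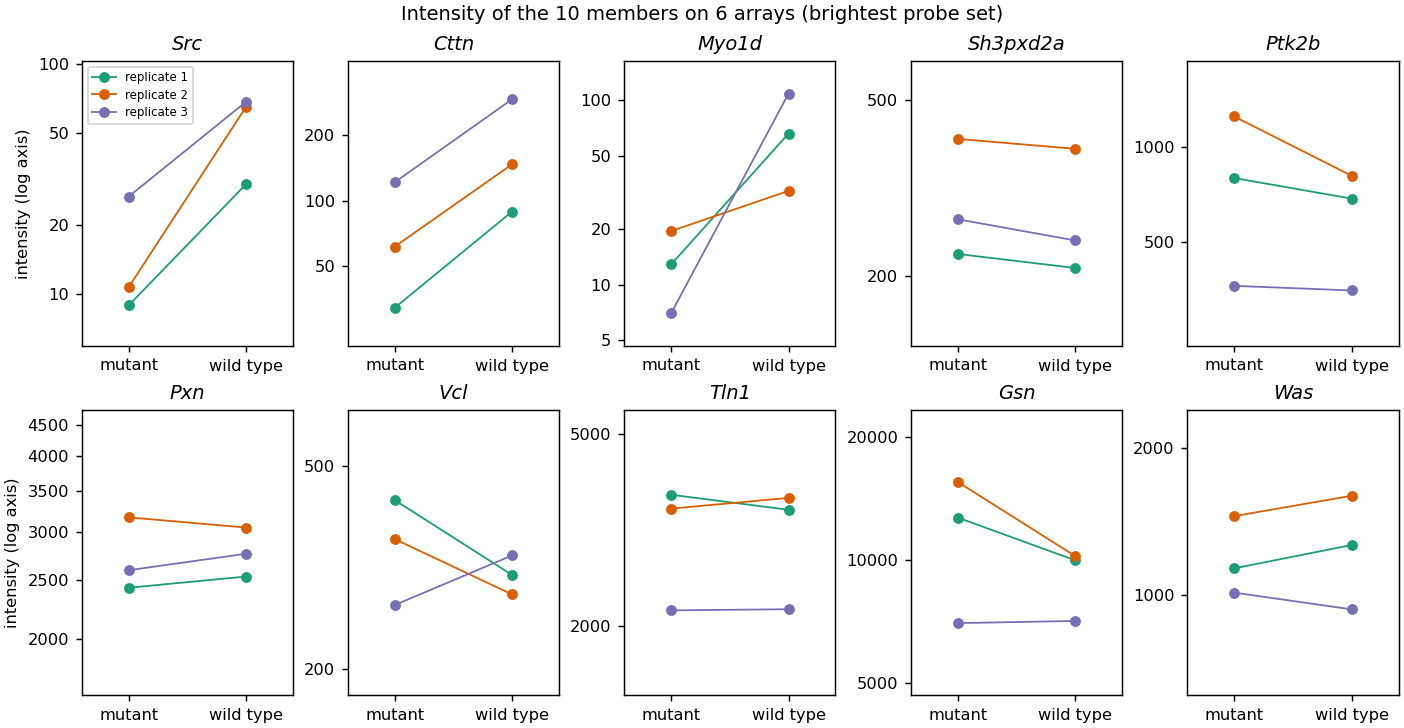
Each panel shows 1 gene, with the intensity of its brightest probe set on a log axis for the mutant arrays (left) and the wild-type arrays (right); lines join arrays with the same replicate number, and axes differ between panels. The 3 lines of Src, Cttn and Myo1d all run upwards to the wild type, while those of Pxn, Tln1 and Sh3pxd2a are nearly flat.

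Src is the tyrosine kinase at the centre of podosome signalling. Its probe set 1450918_s_at read 8.95, 10.7 and 26.5 on mutant arrays 1, 2 and 3, against 30.0, 65.1 and 68.4 on wild-type arrays 1, 2 and 3. All mutant arrays were below all wild-type arrays, and the array medians were 8.86 to 9.38, so 2 of the mutant values lay near the middle of the array. Mean intensity was 15.4 ± 9.67 over the mutant arrays and 54.5 ± 21.2 over the wild-type arrays (SD, n = 3 for both), which is 2.23-fold lower in the mutant on the log2(intensity + 16) scale. The 95% interval of the log2 difference was -1.99 to -0.33 without a block (limma, adjusted p = 0.99998). In the fit blocked on the assay it was -1.65 to -0.67 (limma, adjusted p = 0.859). The pairs differed by -0.88, -1.60 and -0.99. In these bulk samples fewer cells that express a gene and less RNA per cell cannot be told apart. The mutant values are dim, and the size moved with the pseudocount: the difference was -1.82 with a pseudocount of 1 and -0.57 with 64. The second probe set, 1423240_at, was near the floor, at 6.37, 7.40 and 6.70 in the mutant against 7.16, 10.2 and 11.6 in the wild type, and it was left out of the test as dim. It was lower in each pair as well, while its groups overlapped.

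Short stretches before an annotated transcript start of Src are shown beside those of 2 other members, because they carry the same 6-base letters, GAGGAA, the core of sites bound by PU.1, the main transcription factor of the myeloid lineage, in members with different readings. RefSeq windows of the 250 bases before a transcript start (GRCm38.p6) were matched for 5 of the 10 members, Src, Gsn (3 starts), Tln1, Vcl and Was. The starts used for Src and Vcl and 2 of those of Gsn lie inside the annotated gene, past its first base, so the Src stretch is within the Src gene. The Tln1 and Gsn stretches lie before the gene. Capitals mark the match, which on the gene's strand reads TTCCTC where it lies on the other strand.
Src, chr2:157424173-157424202, plus strand: ccgggtccgcgcTTCCTCctttctccggct
Tln1, chr4:43562637-43562666, minus strand: tcagcttctgtaTTCCTCagcttccaacac
Gsn, chr2:35256231-35256260, plus strand: ttcctcgggacaGAGGAAgcgaagcggttg
The Src match lies 108 to 103 bases before its internal transcript start, that of Tln1 71 to 66 bases before the gene's start, and that of Gsn 116 to 111, with a second Gsn match at 128 to 123. On either strand, 23.3% of 32817 such windows of all genes hold these letters, and 3 of the 7 windows of the members do. Any link of these letters to the readings of Src, Tln1 or Gsn was not tested. The Sp1 letters GGGCGG, held by 32.7% of all windows, occurred in 5 of the 7, that of Src among them. The AP-1 letters TGANTCA (6.75% of all windows), the MITF letters TCATGTG (3.25%) and the kappa B consensus (3.90%) occurred in none of the 7. The NFAT core GGAAA, held by 55.6% of all windows, occurred in 3, namely 2 of Gsn and 1 of Was, and 1 of the Gsn matches overlaps a GAGGAA match. The Src window consists of G and C at 82.8%, against a median of 52.4% over all windows.

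Ptk2b encodes Pyk2, a kinase that binds Src when integrins engage. It read 799, 1253 and 363 on mutant arrays 1, 2 and 3, against 687, 812 and 351 on wild-type arrays 1, 2 and 3. The groups overlapped, and each mutant array was above its wild-type partner, mainly in assay 2. The log2 difference was 0.29 ± 0.54 SE with an interval of -1.08 to 1.66 without a block (limma, adjusted p = 0.99998). In the fit blocked on the assay the interval was -0.10 to 0.68 (limma, adjusted p = 0.859). The difference was -0.11 without mutant array 2 and -0.06 without wild-type array 3. The second probe set, 1442927_at, differed by 0.39, -0.41 and 0.19 in pairs 1, 2 and 3, so it did not keep the direction of the first in assay 2.

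Cttn encodes cortactin, which binds branched actin in the podosome core and is a substrate of Src. Its probe set 1433908_a_at read 32.0, 61.3 and 122 on mutant arrays 1, 2 and 3, against 89.1, 147 and 294 on wild-type arrays 1, 2 and 3. The groups overlapped, since mutant array 3 was above wild-type array 1, but within each assay the mutant array was lower. The mutant to wild-type ratio of intensities was 0.359, 0.416 and 0.413 in pairs 1, 2 and 3, and the log2 differences were -1.13, -1.08 and -1.17, the closest agreement between pairs among the 3 lower genes. Of the sum of squares of Cttn over the 6 arrays, 55.6% lay between assays and 44.4% between groups. The interval of the difference was -2.51 to 0.26 without a block (limma, adjusted p = 0.99998) and -1.34 to -0.92 in the fit blocked on the assay (limma, adjusted p = 0.395). Cttn was brightest in assay 3, where the stromal markers were also high. Without both arrays of assay 3 the difference was -1.10, as large as with them.

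The other probe sets of Cttn showed less. The second brightest, 1423917_a_at, read 22.0, 24.2 and 53.6 in the mutant against 36.1, 46.3 and 108 in the wild type. It too was lower in each pair, by 0.45, 0.63 and 0.83 on the log2 scale. The next, 1421313_s_at, read between 25.1 and 25.8 on all 6 arrays, with pair differences of -0.01, 0.01 and -0.01. The remaining 2 read 4.18 to 13.1 and 9.30 to 10.0, near the floor. Averaged over its 5 probe sets, Cttn differed by -0.39, and such averages were -0.66 for Src and -0.74 for Myo1d, each averaged with a probe set near the floor.

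Was encodes WASP, which switches on the Arp2/3 complex in blood cells. It read 1133, 1450.4 and 1009.6 on mutant arrays 1, 2 and 3, against 1265, 1597 and 933 on wild-type arrays 1, 2 and 3. The groups overlapped and the pairs went both ways, by -0.16, -0.14 and 0.11. The log2 difference was -0.06 ± 0.25 SE, with an interval of -0.68 to 0.56 without a block (limma, adjusted p = 0.99998). In the fit blocked on the assay the interval was -0.33 to 0.20 (limma, adjusted p = 0.941). Of the sum of squares of Was, 93.6% lay between assays.

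Gsn encodes gelsolin, which severs and caps actin filaments and is found in podosomes. It read 12692, 15517 and 6995 on mutant arrays 1, 2 and 3, against 9969.7, 10210.3 and 7082 on wild-type arrays 1, 2 and 3. The mutant was higher in assays 1 and 2 and level with the wild type in assay 3, so the groups overlapped. The log2 difference was 0.31 ± 0.34 SE, with an interval of -0.55 to 1.17 without a block (limma, adjusted p = 0.99998). In the fit blocked on the assay the interval was -0.10 to 0.72 (limma, adjusted p = 0.859). The pair differences were 0.35, 0.60 and -0.02. The 3 next brightest probe sets of Gsn differed by 0.37, 0.32 and 0.30, and in each of them pair 2 was the highest, at 0.67, 0.69 and 0.49. Of these 4 bright probe sets 3 carry the suffix x, which Affymetrix gives to sets that may also detect other transcripts. The sets that represent Src, Myo1d and Pxn carry the suffix s. Whether any of these sets detect other transcripts was not tested. The last 2, 1456569_x_at and 1456568_at, read at most 7.13 and were not tested. Without mutant array 3 the difference was 0.65, and without mutant array 2 it was 0.07.

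Myo1d encodes a single-headed myosin of class I, a motor that links membranes to actin. Its probe set 1435463_s_at read 12.9, 19.5 and 7.0 on mutant arrays 1, 2 and 3, against 65.9, 32.2 and 108 on wild-type arrays 1, 2 and 3. All mutant arrays were below all wild-type arrays, and the gap was narrowest in assay 2 and widest in assay 3. Mean intensity was 13.1 ± 6.27 over the mutant arrays and 68.9 ± 38.2 over the wild-type arrays (SD, n = 3 for both), which is 2.75-fold lower in the mutant on the log2(intensity + 16) scale. The pairs differed by -1.50, -0.44 and -2.44. The interval of the log2 difference was -2.43 to -0.49 without a block (limma, adjusted p = 0.99998). In the fit blocked on the assay it was -2.62 to -0.30 (limma, adjusted p = 0.859). With a pseudocount of 1 the difference was -2.25 and with 64 it was -0.75, and 2 of the 3 mutant values lay below 16. Without both arrays of assay 3 the difference was -0.97. The assays held 3.23% of the sum of squares of Myo1d, the smallest share among the 10 members, and the groups 73.8%. Its other probe set, 1458550_at, read 5.33 to 5.92 on all arrays and was not tested.

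Sh3pxd2a encodes Tks5, an adaptor that Src phosphorylates and that podosomes need to form. It read 224, 408 and 269 on mutant arrays 1, 2 and 3, against 208, 388 and 240.5 on wild-type arrays 1, 2 and 3. The groups overlapped almost fully, and each mutant array was slightly above its partner, by 0.10, 0.07 and 0.15 on the log2 scale. The log2 difference was 0.11 ± 0.31 SE, with an interval of -0.69 to 0.90 without a block and -0.10 to 0.31 in the fit blocked on the assay (limma, adjusted p = 0.863). Of its sum of squares 97.6% lay between assays. Its second probe set, 1422163_at, read 5.03 to 5.10 on all arrays and was not tested.

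Pxn encodes paxillin, an adaptor of the podosome ring. It read 2429.6, 3170.4 and 2596 on mutant arrays 1, 2 and 3, against 2535, 3051 and 2763 on wild-type arrays 1, 2 and 3. The groups overlapped, and the log2 difference was -0.03 ± 0.14 SE. Its interval was -0.39 to 0.33 without a block (limma, adjusted p = 0.99998), the narrowest among the 10 members in that fit. In the fit blocked on the assay it was -0.25 to 0.19 (limma, adjusted p = 0.974). The second probe set, 1424027_at, differed by -0.10. The third, 1426085_a_at, read 114, 11.0 and 88.6 in the mutant against 127, 73.2 and 99.9 in the wild type, so that mutant array 2 alone was low. Its difference was -0.67 ± 0.64 SE, with -0.14, -1.72 and -0.15 in pairs 1, 2 and 3.

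Vcl and Tln1 encode vinculin and talin-1, which tie integrins to actin in the podosome ring. Vcl read 428, 359 and 267 on mutant arrays 1, 2 and 3, against 305, 279.6 and 333 on wild-type arrays 1, 2 and 3. The mutant was higher in assays 1 and 2, by 0.47 and 0.34, and lower in assay 3, by 0.31 on the log2 scale. The log2 difference of Vcl was 0.17 ± 0.19 SE, with an interval of -0.31 to 0.65 without a block (limma, adjusted p = 0.99998). In the fit blocked on the assay the interval was -0.35 to 0.68 (limma, adjusted p = 0.893). The difference was 0.40 without both arrays of assay 3. The second Vcl probe set, 1416157_at, differed by -0.14 and was dim, at 10.9 to 30.4.

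Tln1 read 3744, 3503 and 2151 on mutant arrays 1, 2 and 3, against 3483, 3688 and 2162 on wild-type arrays 1, 2 and 3. The paired arrays were nearly level, and assay 3 was lower in both groups, and 98.9% of the sum of squares lay between assays. The log2 difference was 0.01 ± 0.31 SE, with an interval of -0.78 to 0.79 without a block and -0.22 to 0.23 in the fit blocked on the assay (limma, adjusted p = 0.99998 without a block). The other Tln1 probe sets, 1457782_at and 1436042_at, differed by 0.15 and 0.05.

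**Figure D3:**
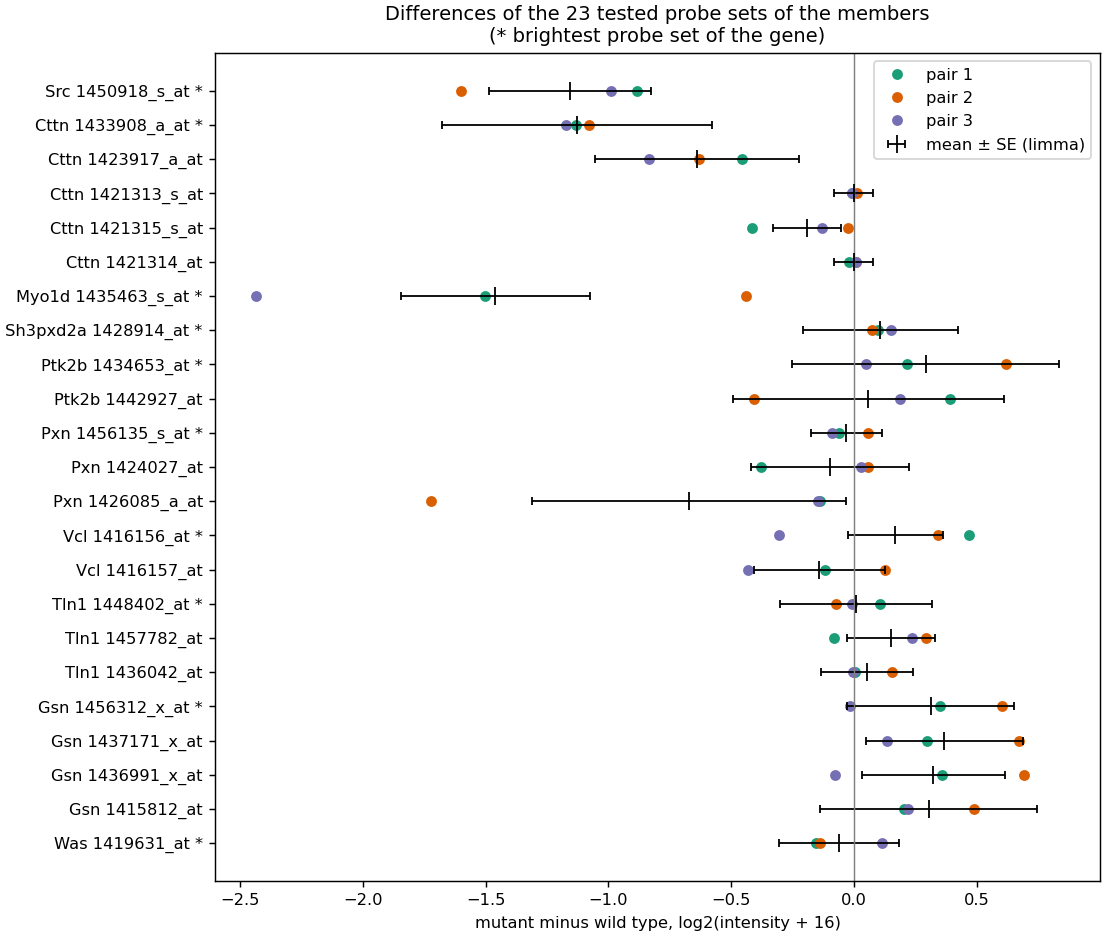
Coloured points give the mutant minus wild-type difference of log2(intensity + 16) in each same-numbered pair for the 23 tested probe sets of the members, and black bars give the mean with the limma SE of the fit without a block. The points of the brightest Cttn probe set lie between -1.17 and -1.08, those of Myo1d between -2.44 and -0.44, and those of the brightest Pxn, Tln1 and Sh3pxd2a probe sets within 0.15 of 0.

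Of the 28 probe sets, 23 passed the filter on dim probe sets and 5 did not, and every member passed with its brightest. Of the 13 tested probe sets that do not represent a gene, 7 had a lower and 6 a higher mean, 3 were lower and 2 higher in every pair, and 0 passed by limma, with 0 at an unadjusted p under 0.05. With the block 2 of the 13 had such a p by limma, Cttn 1423917_a_at (lower, unadjusted p = 0.00398) and Gsn 1415812_at (higher, unadjusted p = 0.0371), and neither passed after adjustment (adjusted p = 0.859). The assays accounted for more of the sum of squares than the groups in 8 of the 10 members, all but Src and Myo1d, and for over 80% in 5. The same counts over all genes were not worked out, so whether these counts set the members apart is not known. Same-numbered arrays deviated together across all probe sets tested.

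The genes whose profile over the 6 arrays came nearest to Src were Gsdmd, Vcan, Ppargc1b, Ifi30 and Grap. Likeness was measured as the root mean square difference of log2(intensity + 16) values, each gene centred on its own mean, over 6 arrays and 10371 genes. It was 0.15 for Gsdmd, a pore-forming protein of pyroptosis, 0.22 for Vcan, the proteoglycan versican, 0.24 for Ppargc1b, a coactivator of mitochondrial genes, 0.26 for Ifi30, a lysosomal thiol reductase, and 0.27 for Grap, an adaptor of the Grb2 family. Gsdmd read 866, 947 and 1339.9 on mutant arrays 1, 2 and 3, against 1460.5, 2229.9 and 2314 on wild-type arrays 1, 2 and 3, far above the floor. Like Src it was highest on mutant array 3 among the mutant arrays and lowest on array 1 among the wild-type arrays. Their lower mutant values follow from the choice by the Src profile. Among the members Cttn ranked 17th at 0.35, and Myo1d came at rank 1942 at 0.65.

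**Figure D4:**
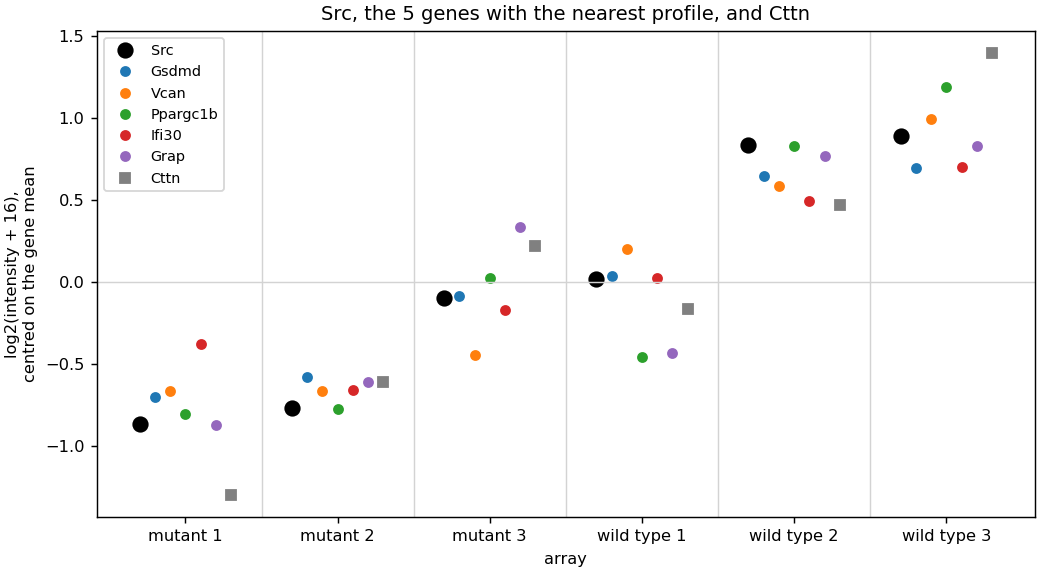
Points give log2(intensity + 16), centred on the mean of each gene, on the 6 arrays for Src (black), the 5 genes with the nearest profile (colours) and Cttn (grey squares). Src and Gsdmd lie close together on every array, and Cttn lies below Src on mutant array 1 and wild-type array 2 and above it on array 3 of both groups.

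Beyond the 10 members, 6 lists of podosome and actin genes with 121 entries were examined, of which 103 were tested, 6 were too dim and 12 were not analysed here. By limma 0 of the 103 passed over all probe sets, and 1, Dock5, had an unadjusted p under 0.05 (8 with the block). Lower means were found for 36 and higher means for 67, with a median log2 difference of 0.04, against 46.8% lower over all genes. Lower in every pair were 12 (11.7%, against 12.0% of all genes) and higher in every pair 23 (22.3%, against 14.5%). The count of lower means was 65 without mutant array 2, 55 without both arrays of assay 2 and 61 without wild-type array 3, so the split of lower and higher means depended on these arrays. Without assay 1, 2 or 3 the counts in every remaining pair reached up to 26 lower and 41 higher. With 2 pairs in place of 3 these counts cannot fall, so their rise alone does not tell whether they depend on an assay. With each gene as the mean of its probe sets, 13 were lower and 15 higher in every pair. The values of 3 genes, Dock5, Rac2 and Arpc1a, were lower in the mutant without overlap (2.91% of the 103, against 1.96% of all genes) and those of 2, Vav1 and Capza1, higher without overlap (1.94%, against 1.36% of all genes).

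Of 9 Src-family kinases and regulators 3 had a lower and 6 a higher mean, with a median of 0.06. Fgr, a Src-family kinase of myeloid cells, read 124, 36.0 and 72.1 on mutant arrays 1, 2 and 3, against 207, 173 and 115 on wild-type arrays 1, 2 and 3. It was lower in each pair, though mutant array 1 was above wild-type array 3, and it differed by -1.04 ± 0.41 SE (limma, adjusted p = 0.99998). Its second probe set differed by -0.94. Ptpra, a phosphatase that activates Src, differed by 0.29 and the kinase Fyn by 0.12.

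Dock5, an exchange factor for Rac that mouse osteoclasts need for resorption, read 77.0, 87.1 and 35.3 on mutant arrays 1, 2 and 3, against 128, 121 and 124 on wild-type arrays 1, 2 and 3. The mutant was lower throughout, and mutant array 3 was the lowest. Dock5 differed by -0.83 ± 0.28 SE (limma, adjusted p = 0.99998), and its 2 other probe sets by -0.65 and -0.63. Rac2, the Rac of blood cells, read 1613, 1042 and 1471 in the mutant against 1914, 1708 and 2031 in the wild type, a log2 difference of -0.47 ± 0.19 SE. Vav1, another exchange factor, differed by 0.21 ± 0.10 SE.

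Of 19 genes of the Arp2/3 complex and actin nucleation 3 had a lower and 16 a higher mean, with a median of 0.07. Coro1b, a coronin that acts on Arp2/3 branches, differed by -0.25 ± 0.12 SE, Arpc1a, a subunit of the complex, by -0.16 ± 0.08, and Fmnl1, a formin, by 0.52 ± 0.41. Fmnl1 read 138, 88.6 and 47.0 in the mutant against 73.4, 63.9 and 31.6 in the wild type, higher in each pair with overlapping groups.

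Of 17 genes for bundling, capping and severing actin 3 had a lower and 14 a higher mean, with a median of 0.10. Capza1, a capping subunit, differed by 0.20 ± 0.12 SE, Cotl1, a coactosin-like protein that binds actin, by 0.25 ± 0.23, and Svil, which encodes supervillin, by 0.13 ± 0.12. Fscn1, which encodes the bundling protein fascin and was chosen after its values were seen, was with Fgr 1 of 2 genes in the 6 lists at least 2-fold apart, where 0.665% of all genes were at least 2-fold lower. It read 9.69, 27.3 and 1659 on mutant arrays 1, 2 and 3, against 219.7, 92.9 and 3094 on wild-type arrays 1, 2 and 3. The assays differed far more than the groups, and arrays 3 of both groups, which carried the stromal markers, were the highest. The log2 difference was -1.81 ± 2.07 SE (limma, adjusted p = 0.99998), and the pairs differed by -3.20, -1.33 and -0.89. The second Fscn1 probe set differed by -0.22.

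Of 25 podosome adaptors 13 had a lower and 12 a higher mean, with a median of -0.01, and 0 were free of overlap between the groups. The adaptor Nck2 differed by 0.31 ± 0.22 SE, the Ena/VASP protein Evl by 0.20 ± 0.14, and Pstpip2, a membrane-curving F-BAR protein of macrophages, by -0.29 ± 0.22. Of 13 other myosins 6 had a lower and 7 a higher mean, with a median of 0.01. Among them Myl12b, a regulatory light chain, differed by -0.18 ± 0.13 SE, Myo5a by 0.15 ± 0.25 and Myo10 by -0.17 ± 0.31, so none came near the -1.46 of Myo1d.

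**Figure D5:**
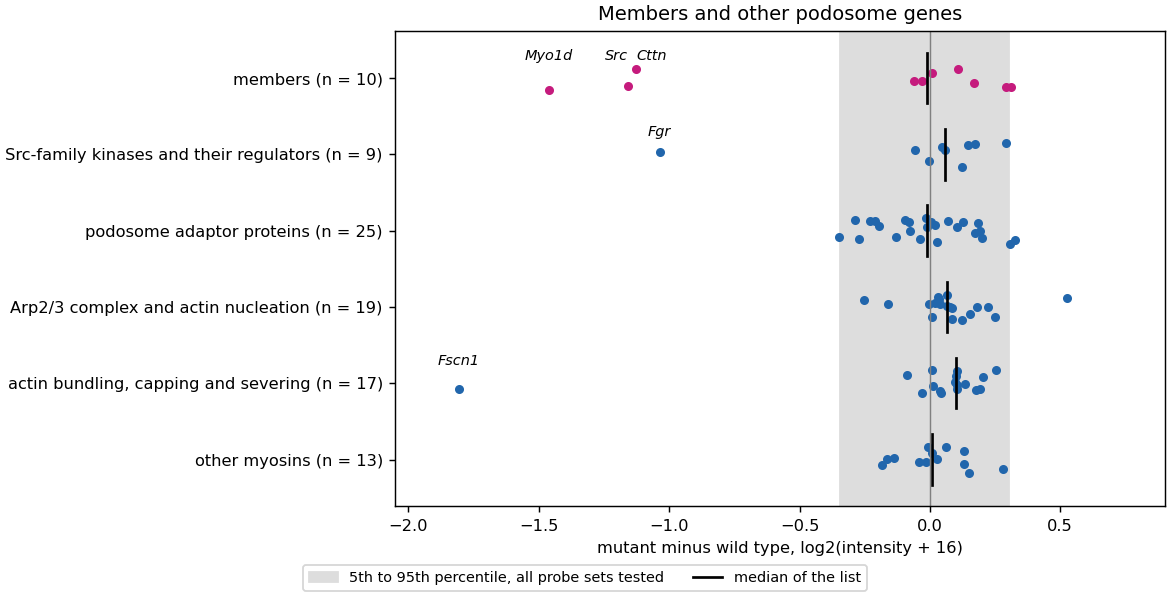
Each point is the mutant minus wild-type difference of log2(intensity + 16) of 1 gene, for the 10 members (pink) and 5 lists of other podosome genes (blue), with a black bar at each list's median and a grey band from the 5th to the 95th percentile of all probe sets tested. Myo1d, Src, Cttn, Fgr and Fscn1 lie at -1.04 or lower, and the medians of the lists lie between -0.01 and 0.10.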

How the data were processed

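The authors deposited 1 intensity per probe set and array, on a linear scale. GCOS and GCRMA are the tools listed, per the submitters' processing notes, with neither a version nor the order of use. GCRMA in general corrects background and normalizes between arrays, and dim values gather near a floor. No further normalization was applied.

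Of 45101 probe sets 64 controls were left out, and the platform annotation gave 1 symbol for 34945, several for 932 and none for 9160. Intensities were transformed to log2(value + 16), and the 22497 probe sets above their own array's median on 3 or more arrays were tested. Mutant minus wild type was tested two-sided with limma 3.58.1 (lmFit, eBayes) in R 4.3.3 without a block, with Benjamini-Hochberg adjustment over all probe sets tested. The fit was also run on simulated data with known changes. Its outcome is not given here and is no support for the results. The number of arrays limits the precision, and p-values measure the spread between these samples.

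Same-numbered arrays deviated together from their group means, with correlations across probe sets of 0.797, 0.671 and 0.845, against -0.618 to -0.0138 for other pairs. The 3 deviations within a group cancel out by construction, so positive values for same-numbered pairs force negative ones among the rest. The contrast with other pairs is thus no separate support. The labels describe 3 independent assays without tying them to replicate numbers, so pairing by number is an inference from these correlations. An exact permutation test of 3 arrays against 3 cannot give a two-sided p below 0.10.

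The members and the gene lists were chosen with earlier results of these data known. Named genes were the members, the 3 genes of each other list with the smallest unadjusted p and the 5 genes nearest to Src; others are said to be chosen after their values were seen. In the other lists and among the genes nearest to Src, a gene is read from its brightest tested probe set. There, other probe sets are given only for Fgr, Dock5 and Fscn1. Shares of the sum of squares come from a table of assays by groups for each gene. Alternatives covered the pseudocount, the filter, normalization, the block, the probe sets of a gene and left-out arrays. The summary of 1 of the 6 lists is not reported here.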

Additional observations from a re-analysis of the deposited data

How the results depend on the processing

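No member and no gene of the other podosome lists passed by limma under any of the 18 alternatives run for these counts. Over all probe sets 1 passed with a random replicate block and 0 with a fixed replicate block, where the count of members passing was 0 too. With the filter at the 70th percentile Src and Myo1d were not tested, which left 3 members with a lower mean and 1 lower in every pair. With each gene as the mean of its probe sets, 4 members and 15 of the other podosome genes were higher in every pair. Leaving out 1 array or 1 assay gave 3 to 8 members with a lower mean, 4 lower in every remaining pair and 2 to 4 higher, and in the other lists 29 to 65 with a lower mean, 17 to 26 lower and 29 to 41 higher in every remaining pair. These pair counts rest on 2 pairs in place of 3, so they cannot fall below those over all pairs. Src, Cttn, Myo1d, Vcl and Gsn kept their direction in all alternatives run, Src between -1.82 and -0.57, Cttn between -1.52 and -0.39 and Myo1d between -2.25 and -0.74. The groups of Src and Myo1d did not overlap, so leaving out arrays or changing the pseudocount could not turn their direction. The small differences of 5 members turned when arrays were left out, ranging from -0.13 to 0.36 for Sh3pxd2a, -0.11 to 0.77 for Ptk2b, -0.14 to 0.048 for Pxn, -0.23 to 0.26 for Tln1 and -0.26 to 0.12 for Was. The cause was not tested. The two-sided exact permutation p over the arrays was 0.10 for Src and Myo1d, the smallest that 3 against 3 arrays allow, and 0.20 for Cttn. Values near the array medians, 8.86 to 9.38, have no reliable size, which limits Src and Myo1d in the mutant.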

Other observations

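With the replicate number as a block, 8 of the 103 other podosome genes had an unadjusted p under 0.05 by limma, where 5.89% of all genes did, and none passed after adjustment (limma, adjusted p = 0.859 for each of the 8). Besides Fgr, Dock5, Rac2, Fscn1 and Fmnl1 these were Asap1, Coro1a and Coro1c, chosen after their values were seen. The coronins Coro1a and Coro1c, which act on actin branches, had log2 differences of 0.22 and 0.25, while Coro1b was at -0.25. By their brightest probe sets the 3 coronins listed thus did not go one way, and other probe sets of Coro1a and Coro1c are not given here. Asap1, an adaptor that Src phosphorylates, differed by -0.27. Hcls1, the cortactin relative of blood cells, read 2185, 1366 and 1571 on mutant arrays 1, 2 and 3, against 2017, 1429 and 1362 on wild-type arrays 1, 2 and 3. It differed by 0.08 ± 0.24 SE, beside -1.13 for Cttn, and was likewise chosen after its values were seen.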
